A study of Mus musculus with 11 samples.

Results

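Tumour tissue was compared with tumour-free skin of the same genotype, so that both groups came from mice carrying the same transgenes. The members were 7 of the 11 arrays of the series, identified by their labels: 5 keratoacanthomas (keratoacanthomas 1 to 5) and 2 normal skins (normal skins 1 and 2), all from mice double transgenic for K14-Cre and Zmiz1. The 4 other normal skins, 2 from K14-Cre mice and 2 from Zmiz1 mice, served only to estimate the spread between arrays. In K14-Cre mice the keratin 14 promoter drives Cre recombinase in basal keratinocytes of the epidermis and hair follicle, while a tissue piece also holds dermal, muscle, fat and immune cells. Each array held amplified cDNA from total RNA of a snap-frozen tissue piece. The age and strain of the mice were not given in the sources used here. Nothing in the labels told whether the pieces were of different animals; p-values therefore reflect only how these arrays vary, and that variation may be technical.

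A keratoacanthoma is a fast-growing squamous tumour of skin, in which well-differentiated keratinocytes surround a crater filled with keratin; in people many such tumours regress. Normal epidermis renews from basal cells that divide, move up, change their keratins and end as dead cells packed in a cross-linked protein envelope and lipid. Injured, inflamed or neoplastic epidermis changes this programme: it makes another set of keratins, small proline-rich envelope proteins, protease inhibitors and antimicrobial proteins. Zmiz1 encodes a transcriptional co-activator with a zinc finger domain of the PIAS type, the family of SUMO ligases.

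The reference skins differed from each other, and the number of calls depended on which of them was used. Over all probesets, correlations were 0.943 to 0.960 between tumours, 0.881 to 0.915 between tumours and normal skin 1, 0.801 to 0.839 between tumours and normal skin 2, and 0.890 between the reference skins. The mean log2 level of 26 hair shaft and inner root sheath genes was 9.04 in normal skin 1 and 5.797 in normal skin 2, and that of 25 skeletal muscle genes was 9.64 and 11.08. Keratoacanthoma 4 stood apart from the other tumours in the hair genes, at 8.10 against 6.00 to 6.21. All 7 arrays carried the keratins that define epidermis; values are given here and below in the order of keratoacanthomas 1 to 5 and then normal skins 1 and 2. Krt5, of basal cells, was at 11.39, 11.23, 11.39, 11.09 and 11.26 in the tumours and 11.13 and 10.77 in the skins. Krt10, of suprabasal cells, was at 11.72, 11.85, 11.83, 11.66 and 11.83 in the tumours and 11.58 and 11.74 in the skins. Neither passed the test, with differences of 0.32 (SE 0.14, adjusted p = 0.15, skin 1 alone 0.70) and 0.12 (SE 0.14, adjusted p = 0.58, skin 1 alone 0.59). Here and below a level is the median of RMA-normalised log2 values over a gene's probesets, and a difference is the mean of the 5 tumours minus the mean of the 2 skins. A gene was called higher or lower where limma's Benjamini-Hochberg adjusted p over 20352 genes was below 0.05; the adjusted p against normal skin 1 alone is printed after it as "skin 1 alone".

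Of the 20352 genes, 2164 (10.6%) rose and 1411 (6.93%) fell in the tumours. At least 2-fold changes made up 778 of the rises and 509 of the falls, and at least 4-fold changes 140 and 143. The median difference of all genes was -0.05, and between the quartiles it ran from -0.29 to 0.25. Against normal skin 1 alone, 503 genes (2.47%) were higher and 323 (1.59%) lower, of which 469 and 282 were also called against both skins. Against normal skin 2 alone, 2542 (12.5%) were higher and 2111 (10.4%) lower. In these fits a lone skin was assumed to vary like the other groups. Calls in all 3 fits numbered 413 higher and 258 lower. Of the genes called against both skins, 1727 of the rises and 1137 of the falls were nearer to the tumours in normal skin 1 than in normal skin 2. Over all genes the median absolute difference was 0.25 between the tumour mean and normal skin 1, 0.37 between the tumour mean and normal skin 2 and 0.30 between the skins. All 5 tumours lay above both skins for 3472 genes (17.1%) and below both for 3546 (17.4%).

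**Figure D1:**
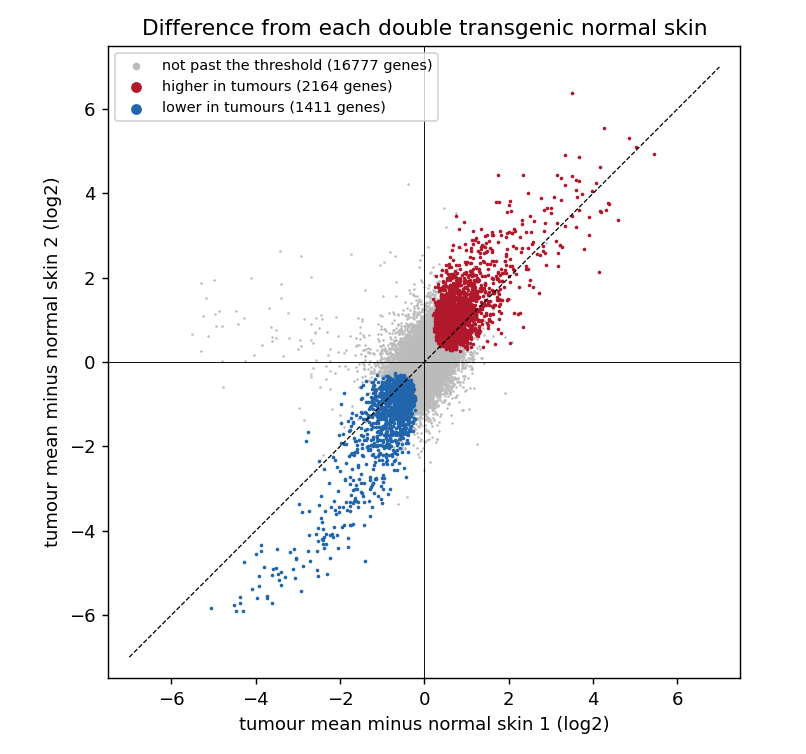
Difference between the mean of the 5 keratoacanthomas and each reference skin on the log2 scale, 1 point per gene, with normal skin 1 on the x axis and normal skin 2 on the y axis; colours mark genes called higher or lower in limma. Of the 20352 genes, 2590 differed at least 2-fold from normal skin 2 and 1147 from normal skin 1.

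Of the 12 largest rises, 4 were in the list of epidermal proteases and inhibitors and 3 in that of stressed keratinocytes. Tmprss11b, a membrane-bound serine protease of squamous epithelia, had the smallest p of all genes. Its level was 8.72, 9.37, 9.57, 9.53 and 9.35 in the tumours and 4.46 and 3.98 in the skins. The difference was 5.08 (SE 0.24, adjusted p = 5.9e-06, skin 1 alone 0.00015), and the mean of the skins was dim, at or below 4.88, the lowest 25th percentile of any array. The small proline-rich pseudogene Sprr2j-ps was at 8.64, 9.41, 8.68, 8.18 and 9.66 in the tumours and 3.46 and 3.97 in the skins, a difference of 5.20 (SE 0.38, adjusted p = 5.4e-05, skin 1 alone 0.00084). Serpinb3a, an intracellular inhibitor of cysteine and serine proteases, was at 8.37, 9.39, 9.07, 7.38 and 8.75 in the tumours and 3.58 and 3.49 in the skins, a difference of 5.06 (SE 0.47, adjusted p = 0.00020, skin 1 alone 0.0042). The largest rises and falls were taken from genes without overlap between the groups, so their separation was fixed by the choice. Lce3b, a late envelope gene of stressed epidermis, was at 9.18, 10.07, 9.57, 9.05 and 9.64 in the tumours and 5.23 and 3.95 in the skins, a difference of 4.92 (SE 0.40, adjusted p = 9.1e-05, skin 1 alone 0.0015). Other members of the 12 largest rises were Tmprss11g (4.40, adjusted p = 4.4e-05, skin 1 alone 0.0010), Lipn (4.07, adjusted p = 0.00026, skin 1 alone 0.0032), Sprr2e (4.07, adjusted p = 0.00033, skin 1 alone 0.0039) and Csta3 (4.02, adjusted p = 0.00051, skin 1 alone 0.011). Sprr2, Lce3, Serpinb3 and Csta genes have near-identical copies in mouse, so that signal between such copies could be shared on the array. The group mean was also dim in the skins for Sprr2j-ps, Serpinb3a and Lce3b, and further on for Defb4, Lipk, Ccne2, Cxcr2, Mcpt8 and Slc7a11, and in the tumours for Xirp2, Mgl2, Myl1 and C7. Ms4a1, also named further on, was dim in both groups. Such differences are set against a level near background.

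Epgn, which encodes the EGF receptor ligand epigen, had the second smallest p. It was at 10.37, 10.40, 10.02, 10.08 and 10.67 in the tumours and 6.65 and 6.69 in the skins, with the reference skins nearly equal and a difference of 3.64 (SE 0.20, adjusted p = 2.1e-05, skin 1 alone 0.00027). Serpinb2, an inhibitor of plasminogen activators made by keratinocytes, was at 10.92, 11.06, 11.18, 10.92 and 11.04 in the tumours and 8.18 and 7.93 in the skins, a difference of 2.97 (SE 0.18, adjusted p = 4.0e-05, skin 1 alone 0.00055). Nts, which encodes the peptide neurotensin, was at 8.91, 9.87, 9.59, 7.01 and 10.15 in the tumours and 5.03 and 4.86 in the skins. Its difference was 4.16 (SE 0.72, adjusted p = 0.0040, skin 1 alone 0.052), with no call against normal skin 1 alone. Teddm3, a gene whose role in skin is not described here, rose by 3.27 (SE 0.22, adjusted p = 4.3e-05, skin 1 alone 0.00065).

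Of the 12 largest falls, 10 were in the list of skeletal muscle, which lies under mouse skin as the panniculus carnosus. Pvalb, a calcium buffer of fast muscle fibres, was at 6.30, 4.57, 7.20, 7.84 and 4.59 in the tumours and 11.15 and 11.93 in the skins, and fell by 5.44 (SE 0.78, adjusted p = 0.0017, skin 1 alone 0.030). Cox8b, a muscle subunit of cytochrome oxidase, was at 6.25, 5.37, 6.26, 6.22 and 5.67 in the tumours and 10.41 and 11.85 in the skins, and fell by 5.18 (SE 0.35, adjusted p = 4.3e-05, skin 1 alone 0.00027). Myh4, a fast myosin heavy chain, was at 5.78, 5.27, 7.07, 7.41 and 4.99 in the tumours and 10.62 and 11.86 in the skins, and fell by 5.14 (SE 0.61, adjusted p = 0.00064, skin 1 alone 0.015). Tcap, the titin cap protein, was at 6.18, 5.36, 5.61, 5.96 and 5.07 in the tumours and 9.52 and 10.12 in the skins, and fell by 4.18 (SE 0.28, adjusted p = 4.3e-05, skin 1 alone 0.00072). The 25 muscle genes listed all fell, 24 of them against normal skin 1 alone and 25 against normal skin 2 alone, with a median difference of -4.35; of all genes 6.93% fell. Their mean level was 6.21, 5.58, 6.67, 6.72 and 5.51 in the tumours and 9.64 and 11.08 in the skins. Keratoacanthomas 2 and 5 were lowest and normal skin 2 highest, and 4 of the genes were dim in the tumours. Because each array measured a whole tissue piece, fewer cells of a type and less RNA per cell cannot be told apart, here and for every cell type below. Others were Myh1 (-5.10, adjusted p = 0.00028, skin 1 alone 0.0059), Casq1 (-5.04, adjusted p = 0.00011, skin 1 alone 0.0024), a calcium store protein, and Mb (-4.24, adjusted p = 4.3e-05, skin 1 alone 0.00013), myoglobin. The sarcomere scaffolds Ttn and Neb had differences of -4.97 (SE 0.60, adjusted p = 0.00071, skin 1 alone 0.017) and -4.62 (SE 0.44, adjusted p = 0.00021, skin 1 alone 0.0036), and Pygm, which breaks down glycogen, fell by 4.64 (SE 0.44, adjusted p = 0.00021, skin 1 alone 0.0018). Car3, a carbonic anhydrase of fat as well as muscle, was at 5.98, 5.74, 7.25, 7.82 and 4.96 in the tumours and 10.44 and 11.73 in the skins, and fell by 4.73 (SE 0.66, adjusted p = 0.0015, skin 1 alone 0.030).

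**Figure D2:**
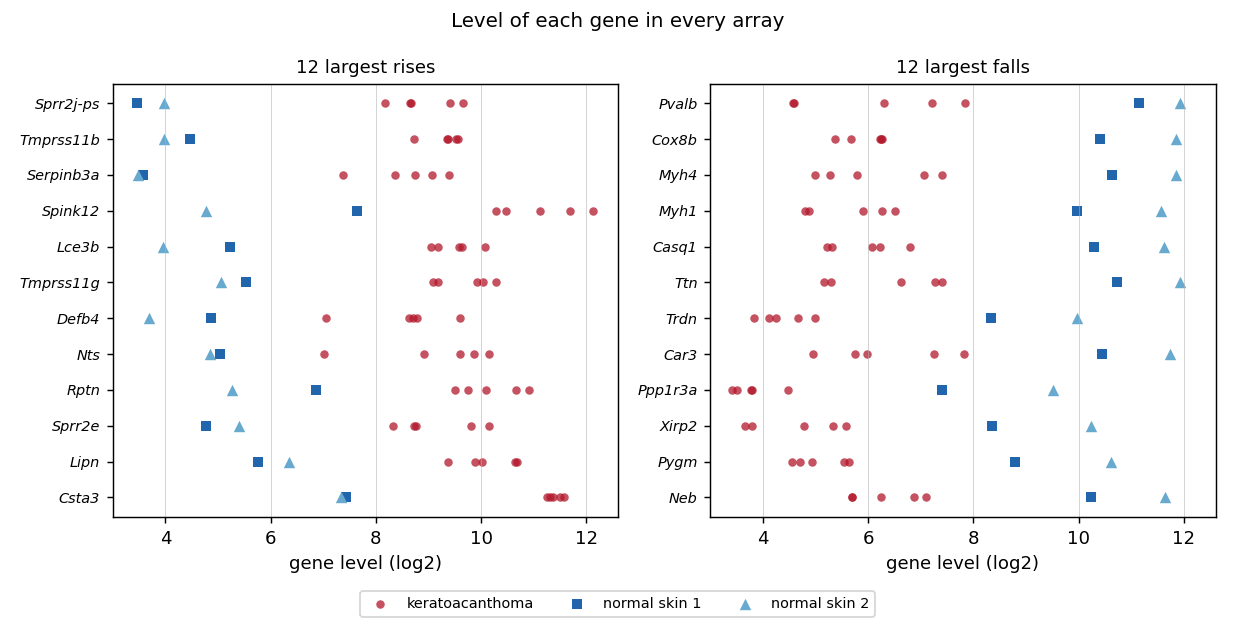
Log2 level in each array of the 12 genes with the largest rises and the 12 with the largest falls, 1 row per gene; points are the 5 keratoacanthomas and the 2 normal skins of the same genotype. Only genes whose tumours all lay on one side of both skins could enter the plot, so the separation is part of the choice.

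Xirp2, an actin-binding protein of striated muscle, was at 4.79, 3.66, 5.58, 5.33 and 3.79 in the tumours and 8.35 and 10.23 in the skins, and fell by 4.67 (SE 0.58, adjusted p = 0.00079, skin 1 alone 0.015). The 250 bases before its start are shown because MEF2, a muscle transcription factor family, binds an AT-rich motif of this kind, here searched as CTA, any 4 bases and TAG on both strands and printed in capitals. It was found in 3 of the 20 muscle promoters present in the RefSeq table (15.0%), those of Ttn, Ppp1r3a and Xirp2, and in 3.23% of all 27025 promoters of the same length. A match is a description of letters, not a bound site. The sequence is from RefSeq on GRCm38.p6 (chr2:67445752-67446001, plus strand), 5′ to 3′ towards the gene.

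Xirp2: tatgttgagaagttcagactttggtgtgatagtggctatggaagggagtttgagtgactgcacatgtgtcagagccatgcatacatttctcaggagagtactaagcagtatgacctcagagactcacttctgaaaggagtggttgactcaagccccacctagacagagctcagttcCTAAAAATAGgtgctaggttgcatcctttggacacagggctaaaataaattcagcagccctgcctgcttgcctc

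Genes of stressed or wounded keratinocytes rose almost throughout: 25 of 28 measured members were higher and none lower, 17 of them also against normal skin 1 alone, with a median difference of 3.18 beside -0.05 for all genes, of which 10.6% rose. The counts of each list below stand beside 10.6% of all genes that rose and 6.93% that fell. A list with few calls, or with shares near these, is not set apart from all genes by its count. Counts of list members against normal skin 1 alone, here and below, cover all measured members, called against both skins or not. The mean of the list was 9.31, 10.10, 9.47, 9.41 and 10.12 in the tumours and 6.92 and 6.51 in the skins. The groups did not overlap, and keratoacanthomas 2 and 5 were highest. Defb4, a beta-defensin that kills microbes, was at 7.06, 9.60, 8.70, 8.77 and 8.64 in the tumours and 4.87 and 3.69 in the skins, a difference of 4.27 (SE 0.58, adjusted p = 0.0013, skin 1 alone 0.027). Sprr2f, a small proline-rich envelope protein, was at 10.29, 11.02, 10.67, 10.36 and 11.18 in the tumours and 6.12 and 7.33 in the skins, a difference of 3.98 (SE 0.49, adjusted p = 0.00075, skin 1 alone 0.0043). Keratin 16, a keratin of wound edges, was at 11.52, 11.43, 11.44, 11.47 and 11.65 in the tumours and 9.48 and 7.68 in the skins, a difference of 2.92 (SE 0.60, adjusted p = 0.0086, skin 1 alone 0.14). Its partner Krt6b was at 11.56, 11.32, 11.43, 11.15 and 11.47 in the tumours and 9.04 and 6.94 in the skins, a difference of 3.40 (SE 0.69, adjusted p = 0.0087, skin 1 alone 0.14). Krt17, made in stressed epidermis and in the hair follicle, was at 9.76, 9.66, 9.53, 9.96 and 9.60 in the tumours and 9.11 and 7.87 in the skins, a difference of 1.22 (SE 0.29, adjusted p = 0.016, skin 1 alone 0.21). These keratins had higher levels in normal skin 1 than in normal skin 2, and none of these 3 passed the test against normal skin 1 alone. Krt6b, Krt16 and Krt17, like Krt1, Krt5 and Krt10, were named for their use as layer markers and not by the rule for named genes.

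Upstream sequences of a pair of these genes are shown because some promoters of the list hold the AP-1 motif TGANTCA, which Fos and Jun proteins bind. It was found on either strand within 250 bases before the start in 8 of 25 promoters of the list (32.0%), namely Sprr1a, Sprr1b, Sprr2b, Sprr2d, Sprr2e, Sprr2f, Sprr2h and Sprr2i, against 6.87% of all 27025. All 8 are Sprr1 or Sprr2 genes, so related copies may be counted more than once, and no other promoter of the list held a match. Any part of the motif in the rise of the list was not tested. Among the proteases and inhibitors it stood in 5 of 24 (20.8%). Sprr1a (GRCm38.p6, chr3:92485882-92486131, minus strand) held 2 matches and Sprr2f (chr3:92364937-92365186, plus strand) 1, in capitals.

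Sprr1a: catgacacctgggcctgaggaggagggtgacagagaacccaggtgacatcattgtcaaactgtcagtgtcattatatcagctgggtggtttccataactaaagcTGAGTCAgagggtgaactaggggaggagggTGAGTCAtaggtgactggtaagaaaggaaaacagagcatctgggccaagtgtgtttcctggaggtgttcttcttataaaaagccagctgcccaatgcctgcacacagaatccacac
Sprr2f: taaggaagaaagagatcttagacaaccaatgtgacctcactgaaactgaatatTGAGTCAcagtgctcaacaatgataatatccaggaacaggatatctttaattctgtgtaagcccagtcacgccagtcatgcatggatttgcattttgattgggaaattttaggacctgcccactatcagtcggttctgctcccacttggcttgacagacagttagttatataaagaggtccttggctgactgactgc

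Keratins and attachment genes of the basal layer had a smaller median difference. In this list, of 16 measured, 6 rose and 3 fell, with a median difference of 0.21 (0.12 against normal skin 1 and 0.45 against normal skin 2). Krt14, whose promoter drives the Cre transgene, was at 11.41, 11.21, 11.46, 11.29 and 11.48 in the tumours and 10.60 and 9.63 in the skins, a difference of 1.25 (SE 0.21, adjusted p = 0.0037, skin 1 alone 0.029). Itga6, the integrin of hemidesmosomes, rose by 1.57 (SE 0.33, adjusted p = 0.010, skin 1 alone 0.12), and Cdh3, P-cadherin of basal and hair matrix cells, by 1.22 (SE 0.30, adjusted p = 0.019, skin 1 alone 0.26). Itga2, a collagen-binding integrin, was at 7.62, 7.55, 7.04, 7.60 and 7.58 in the tumours and 6.84 and 6.43 in the skins, with keratoacanthoma 3 below the other tumours; the difference was 0.84 (SE 0.21, adjusted p = 0.020, skin 1 alone 0.21). Dst, which links keratins to hemidesmosomes, fell by 1.40 (SE 0.30, adjusted p = 0.011, skin 1 alone 0.16). Plec, of similar function, fell by 0.62 (SE 0.17, adjusted p = 0.030, skin 1 alone 0.28). Calls of this list against normal skin 1 alone were 2 higher and 0 lower. Dst was at 7.96 in normal skin 1 and 9.12 in normal skin 2, and Plec at 7.58 and 7.95. Which cells of the tissue piece carried the falls of Dst and Plec was not tested. Plec was not called without any of keratoacanthomas 2, 3 and 5 (adjusted p = 0.059 to 0.061).

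Suprabasal and granular genes of resting epidermis moved both ways; of 22 measured, 10 rose and 3 fell, with a median difference of 0.54 (0.55 against normal skin 1 and 0.73 against normal skin 2). Rptn, a filaggrin-type protein that binds the envelope, was at 9.51, 10.66, 10.09, 9.75 and 10.91 in the tumours and 6.86 and 5.27 in the skins, a difference of 4.12 (SE 0.45, adjusted p = 0.00044, skin 1 alone 0.0068). Casp14, the caspase that helps to degrade filaggrin, was at 9.45, 9.77, 9.58, 9.58 and 9.79 in the tumours and 7.63 and 5.89 in the skins, a difference of 2.87 (SE 0.36, adjusted p = 0.00081, skin 1 alone 0.0030). Flg, filaggrin, was at 11.31, 11.76, 11.65, 11.72 and 11.76 in the tumours and 10.21 and 8.65 in the skins, a difference of 2.21 (SE 0.32, adjusted p = 0.0018, skin 1 alone 0.010), with keratoacanthoma 1 the lowest tumour. Desmocollin 1 (Dsc1), of upper-layer desmosomes, rose by 2.13 (SE 0.25, adjusted p = 0.00061, skin 1 alone 0.0031). Krt1, the partner of Krt10, was at 11.81, 11.80, 11.82, 11.76 and 11.81 in the tumours and 11.12 and 10.65 in the skins, a difference of 0.91 (SE 0.17, adjusted p = 0.0052, skin 1 alone 0.079). In the opposite direction, Krt77 fell by 2.22 (SE 0.62, adjusted p = 0.032, skin 1 alone 0.20). Flg2, a relative of filaggrin, fell by 1.61 (SE 0.40, adjusted p = 0.020, skin 1 alone 0.17). Against normal skin 1 the differences were 3.33 for Rptn, -2.11 for Krt77 and -1.46 for Flg2. Krt77 was not called without any of keratoacanthomas 1 and 2 or normal skin 1 (adjusted p = 0.056 to 0.076).

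The cornified envelope list was split as well: of 21 measured, 6 rose and 3 fell, with a median difference of 0.16 (-0.16 against normal skin 1 and 0.21 against normal skin 2). Involucrin (Ivl), an early envelope scaffold, was at 10.82, 10.90, 10.86, 10.60 and 10.89 in the tumours and 9.65 and 8.01 in the skins, a difference of 1.98 (SE 0.33, adjusted p = 0.0032, skin 1 alone 0.012), and the cross-linking enzyme Tgm1 rose by 1.95 (SE 0.33, adjusted p = 0.0038, skin 1 alone 0.058). Lce1f rose by 2.01 (SE 0.31, adjusted p = 0.0025, skin 1 alone 0.029), while its relatives Lce1b and Lce1m were lower. Lce1b was at 8.18, 8.15, 8.10, 7.71 and 7.86 in the tumours and 9.27 and 9.06 in the skins and fell by 1.17 (SE 0.16, adjusted p = 0.0015, skin 1 alone 0.012); Lce1m fell by 0.98 (SE 0.21, adjusted p = 0.010, skin 1 alone 0.13). Near-identical Lce1 copies could share signal. Cnfn, cornifelin, rose by 1.95 (SE 0.36, adjusted p = 0.0059, skin 1 alone 0.092). Among desmosome and junction genes, of 14 measured, 6 rose and 1 fell, with a median difference of 0.47 (0.41 against normal skin 1 and 0.80 against normal skin 2). Dsg3, the desmoglein of lower layers, was at 9.75, 10.001, 10.23, 9.93 and 10.07 in the tumours and 8.39 and 7.34 in the skins, a difference of 2.13 (SE 0.24, adjusted p = 0.00048, skin 1 alone 0.0030). Other junction rises were Dsc2 (2.25, adjusted p = 0.011, skin 1 alone 0.16), Dsc3 (0.89, adjusted p = 0.017, skin 1 alone 0.22) and Jup (0.72, adjusted p = 0.026, skin 1 alone 0.31), and Pkp2, a plakophilin, fell by 0.57 (SE 0.16, adjusted p = 0.030, skin 1 alone 0.084). Jup was not called without keratoacanthoma 5 (adjusted p = 0.050) and Pkp2 without any of keratoacanthomas 1, 2 and 3 or normal skin 1 (adjusted p = 0.052 to 0.13).

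Epidermal proteases and their inhibitors rose in 25 of 29 cases with none lower, 15 of them against normal skin 1 alone, at a median difference of 2.74. The list's mean was 8.35, 9.13, 8.81, 8.72 and 9.22 in the tumours and 6.67 and 5.91 in the skins. Every tumour lay above both skins on this measure. Spink12, a Kazal-type inhibitor, was at 10.28, 11.69, 11.12, 10.48 and 12.13 in the tumours and 7.64 and 4.77 in the skins. Its level was far higher in normal skin 1 than in normal skin 2, and the difference was 4.94 (SE 0.92, adjusted p = 0.0058, skin 1 alone 0.097), with no call against normal skin 1 alone. Tmprss11g was at 9.18, 10.03, 10.29, 9.92 and 9.09 in the tumours and 5.54 and 5.06 in the skins. Tmprss11e, of the same protease family, was at 8.31, 8.73, 8.69, 8.99 and 8.80 in the tumours and 6.96 and 4.28 in the skins, a difference of 3.08 (SE 0.60, adjusted p = 0.0072, skin 1 alone 0.085).

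Genes that make the lipids of the skin barrier rose in 17 of 20 cases and none fell, 7 of them against normal skin 1 alone, with a median difference of 1.20. Lipn, a lipase of the granular layer, was at 9.89, 10.68, 10.03, 9.37 and 10.64 in the tumours and 5.76 and 6.35 in the skins. Abca12, which loads lipid into lamellar granules, was at 9.49, 10.10, 9.63, 9.99 and 10.03 in the tumours and 7.95 and 7.46 in the skins, a difference of 2.15 (SE 0.25, adjusted p = 0.00064, skin 1 alone 0.014). Ugcg, the enzyme for glucosylceramide, rose by 2.57 (SE 0.38, adjusted p = 0.0019, skin 1 alone 0.038), and Lipk, another epidermal lipase, by 2.62 (SE 0.47, adjusted p = 0.0050, skin 1 alone 0.083). The list's mean lay at 7.998 to 8.86 in the tumours and 7.24 and 6.75 in normal skins 1 and 2.

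Hair shaft and inner root sheath genes gave no call in either direction against both skins, over 26 measured members. Their mean level was 6.12, 6.10, 6.21, 8.10 and 6.005 in the tumours and 9.04 and 5.797 in the skins. Normal skin 1 was highest, keratoacanthoma 4 second, and the remaining 4 tumours lay close to normal skin 2. The median difference was -2.48 against normal skin 1 and 0.60 against normal skin 2. Krt26, an inner root sheath keratin, was at 4.10, 4.34, 4.88, 8.24 and 3.88 in the tumours and 10.59 and 4.43 in the skins; its difference of -2.42 (SE 1.80, adjusted p = 0.38, skin 1 alone 0.15) became 0.66 (adjusted p = 0.84) against normal skin 2 alone. Among genes of hair follicle stem and germ cells, 2 of 14 rose and 2 of 14 fell, beside 10.6% and 6.93% of all genes. Plet1, of the follicle junctional zone, was at 10.13, 10.46, 9.83, 9.91 and 10.35 in the tumours and 8.66 and 7.5 in the skins, a difference of 2.06 (SE 0.28, adjusted p = 0.0012, skin 1 alone 0.013). Postn, periostin, rose by 1.13 (SE 0.22, adjusted p = 0.0070, skin 1 alone 0.092); it is also made by fibroblasts. Fgf18, a growth factor of resting follicles, was at 6.12, 5.95, 6.02, 6.14 and 5.90 in the tumours and 7.26 and 8.21 in the skins and fell by 1.71 (SE 0.27, adjusted p = 0.0025, skin 1 alone 0.042). Nfatc1, a bulge cell factor, fell by 0.58 (SE 0.14, adjusted p = 0.017, skin 1 alone 0.17).

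Of the sebaceous gland genes none rose and 2 of 15 fell. Pparg, a lipid regulator of sebocytes and fat cells, fell by 1.29 (SE 0.30, adjusted p = 0.015, skin 1 alone 0.091). Scd1, the main skin desaturase, fell by 1.56 (SE 0.44, adjusted p = 0.032, skin 1 alone 0.15). The mean of the fat cell markers moved with these genes, at 6.07 to 6.63 in the tumours and 7.04 and 7.29 in normal skins 1 and 2; its part in these falls was not tested. Pparg was not called without normal skin 1 (adjusted p = 0.057) and Scd1 without keratoacanthoma 5 or normal skin 1 (adjusted p = 0.054 to 0.11).

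**Figure D3:**
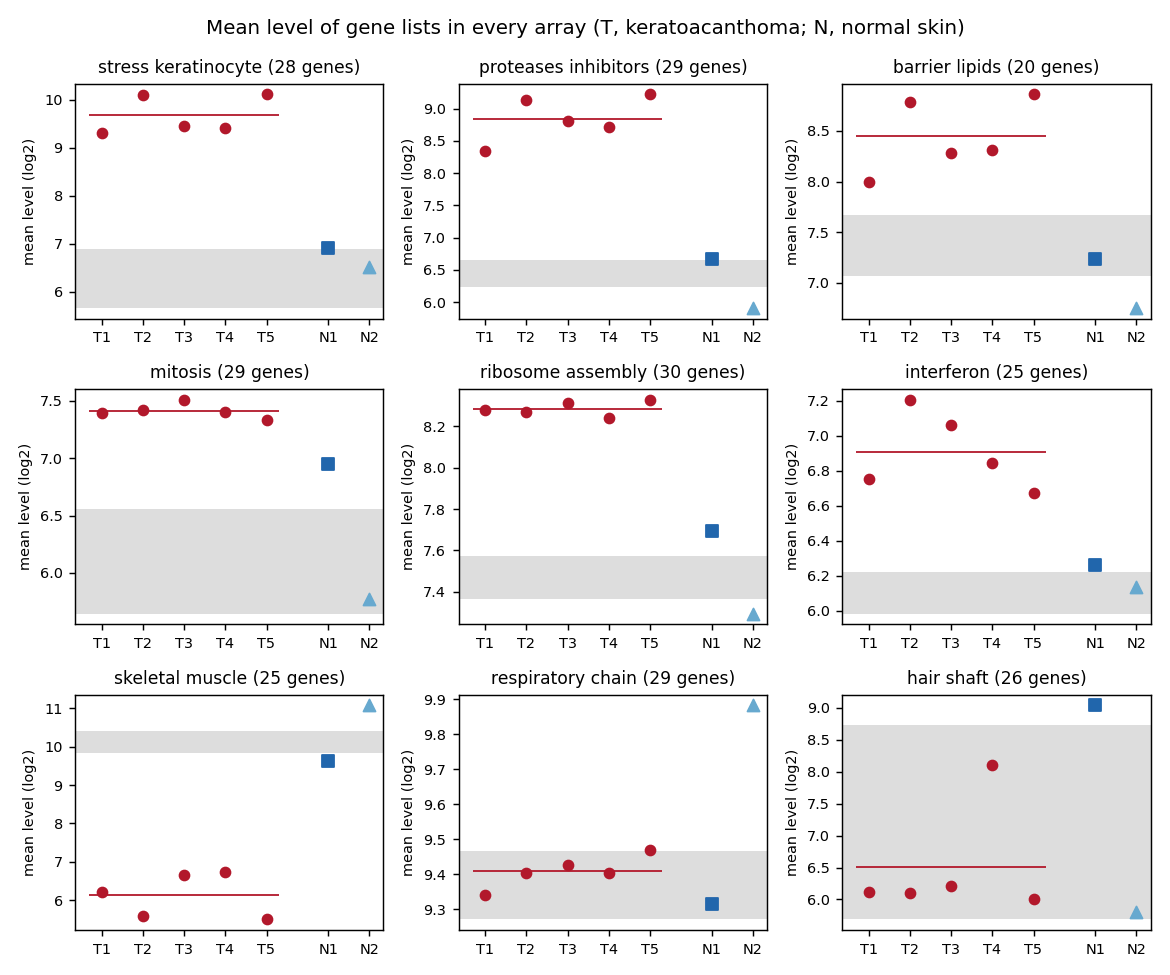
Mean log2 level of the measured members of 9 gene lists in each array, 1 panel per list, with axes that do not start at 0; red points are keratoacanthomas T1 to T5 with their mean as a line, blue symbols normal skins N1 and N2, and the grey band the range of the 4 other normal skins. The stress keratinocyte list lies between 9.31 and 10.12 in the tumours and at 6.92 and 6.51 in normal skins 1 and 2, while the hair shaft list is highest in normal skin 1, at 9.04.

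Genes of mitosis were higher in the tumours, but mostly by comparison with normal skin 2. Of 29 measured, 16 rose and none fell against both skins, 0 were called against normal skin 1 alone and 22 against normal skin 2 alone. Their mean level was 7.39, 7.41, 7.51, 7.40 and 7.33 in the tumours and 6.95 and 5.78 in the skins, and the 4 other normal skins spanned 5.65 to 6.55. All tumours lay above both reference skins on this mean, and normal skin 1, the skin with the high hair genes, lay nearer to them. The part of growing hair in the mitotic level of normal skin 1 was not tested. Top2a, the topoisomerase that untangles chromosomes, was at 9.07, 8.90, 8.9996, 8.98 and 8.85 in the tumours and 8.14 and 6.65 in the skins, a difference of 1.56 (SE 0.40, adjusted p = 0.022, skin 1 alone 0.29). Kif11, the motor that separates spindle poles, was at 7.58, 7.63, 7.66, 7.59 and 7.51 in the tumours and 6.95 and 4.94 in the skins, a difference of 1.65 (SE 0.45, adjusted p = 0.030, skin 1 alone 0.37). Hmmr, a spindle protein, rose by 1.55 (SE 0.36, adjusted p = 0.015, skin 1 alone 0.14), and Cenpe, a kinetochore motor, by 1.55 (SE 0.47, adjusted p = 0.045, skin 1 alone 0.51). Kif11 was not called without any of keratoacanthomas 2, 3 and 5 (adjusted p = 0.051 to 0.055) and Cenpe without any of keratoacanthomas 1, 2, 3, 4 and 5 or any of normal skins 5 and 6 (adjusted p = 0.062 to 0.079).

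The Top2a promoter is shown because 16 of the 29 genes of its list rose and genes of this phase often carry CCAAT boxes, which NF-Y binds. Within 250 bases, CCAAT was found on either strand in 20 of 25 promoters of the list (80.0%) and in 34.5% of all 27025. The CHR motif TTTGAA was found in 8 of 25 (32.0%) and in 16.3% of all. Top2a (GRCm38.p6, chr11:99024190-99024439, minus strand) held 6 CCAAT matches, in capitals.

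Top2a: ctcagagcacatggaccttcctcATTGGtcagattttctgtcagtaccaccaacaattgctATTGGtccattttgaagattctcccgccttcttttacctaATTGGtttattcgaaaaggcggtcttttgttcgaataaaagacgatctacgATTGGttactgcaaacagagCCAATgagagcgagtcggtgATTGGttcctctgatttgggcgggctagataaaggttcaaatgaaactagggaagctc

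DNA replication genes gave 11 of 31 rises and no fall, with 1 call against normal skin 1 alone. Rrm2, the subunit of ribonucleotide reductase made in S phase, was at 8.37, 8.36, 8.29, 8.10 and 8.60 in the tumours and 6.85 and 5.33 in the skins, a difference of 2.25 (SE 0.34, adjusted p = 0.0021, skin 1 alone 0.021). Rrm1, its partner, rose by 1.08 (SE 0.18, adjusted p = 0.0035, skin 1 alone 0.056). Cyclin E2 (Ccne2) rose by 1.16 (SE 0.31, adjusted p = 0.027, skin 1 alone 0.061) and the helicase subunit Mcm5 by 0.98 (SE 0.27, adjusted p = 0.029, skin 1 alone 0.32). Among CDK inhibitors and p53 targets, 4 of 20 rose and 3 of 20 fell, beside 10.6% and 6.93% of all genes. Cdkn1a, the inhibitor p21, was at 9.17, 9.38, 9.15, 9.43 and 9.73 in the tumours and 8.70 and 7.84 in the skins, a difference of 1.10 (SE 0.23, adjusted p = 0.0097, skin 1 alone 0.14). Mdm2, the ligase that degrades p53, was at 8.21, 8.02, 8.15, 7.78 and 7.87 in the tumours and 7.12 and 6.81 in the skins, a difference of 1.04 (SE 0.21, adjusted p = 0.0086, skin 1 alone 0.11). The falls included the inhibitor Cdkn1c, which fell by 0.66 (SE 0.17, adjusted p = 0.024, skin 1 alone 0.29), and Sesn1, which fell by 0.70 (SE 0.20, adjusted p = 0.037, skin 1 alone 0.089). Ccne2 was not called without keratoacanthoma 3 or normal skin 1 (adjusted p = 0.051 to 0.16) and Mcm5 without any of keratoacanthomas 4 and 5 (adjusted p = 0.050 to 0.051). Sesn1 was not called without any of keratoacanthomas 2, 3 and 5 or any of normal skins 1, 5 and 6 (adjusted p = 0.053 to 0.18).

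In the EGFR and MAP kinase list, of 24 measured, 8 rose and 1 fell, with a median difference of 0.21 (0.11 against normal skin 1 and 0.22 against normal skin 2), and 5 members were higher against normal skin 1 alone; of all genes 10.6% rose. Ereg, epiregulin, was at 7.73, 8.12, 7.49, 7.79 and 8.27 in the tumours and 5.58 and 5.26 in the skins, a difference of 2.46 (SE 0.20, adjusted p = 9.2e-05, skin 1 alone 0.0024). Nrg1, neuregulin, a ligand of ERBB3 and ERBB4, was at 7.43, 7.11, 7.05, 7.32 and 7.01 in the tumours and 5.26 and 4.998 in the skins, a difference of 2.05 (SE 0.17, adjusted p = 9.1e-05, skin 1 alone 0.0021). Dusp6, a phosphatase induced by and acting on ERK, was at 8.15, 7.96, 8.22, 7.91 and 8.10 in the tumours and 6.22 and 6.14 in the skins, a difference of 1.89 (SE 0.17, adjusted p = 0.00014, skin 1 alone 0.0030). Egf itself fell by 0.93 (SE 0.29, adjusted p = 0.047, skin 1 alone 0.38). Of AP-1 and immediate early genes 2 of 17 rose and none fell, namely Ier3 (1.27, adjusted p = 0.0063, skin 1 alone 0.088) and Myc (0.65, adjusted p = 0.017, skin 1 alone 0.17). Myc drives growth and ribosome production, and Ier3 is an early response gene. Egf was not called without any of keratoacanthomas 2, 3, 4 and 5 or any of normal skins 5 and 6 (adjusted p = 0.066 to 0.088).

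Wnt pathway genes gave no rise and 5 of 32 falls, where 10.6% of all genes rose and 6.93% fell. Sfrp4, a secreted Wnt inhibitor of dermis, was at 4.79, 5.43, 6.60, 5.72 and 5.76 in the tumours and 7.91 and 8.52 in the skins and fell by 2.56 (SE 0.37, adjusted p = 0.0017, skin 1 alone 0.034). Fzd4, a Wnt receptor, was at 5.24, 5.28, 5.35, 5.47 and 5.19 in the tumours and 6.53 and 6.84 in the skins and fell by 1.38 (SE 0.16, adjusted p = 0.00060, skin 1 alone 0.012). Axin2, a feedback target of beta-catenin, fell by 0.61 (SE 0.16, adjusted p = 0.027, skin 1 alone 0.16), and the co-receptor Lrp6 fell by 0.49 (SE 0.12, adjusted p = 0.020, skin 1 alone 0.14). Notch1, a receptor that promotes differentiation of keratinocytes, was the one change among 18 Notch pathway genes and fell by 0.53 (SE 0.16, adjusted p = 0.045, skin 1 alone 0.15). Of the TGF-beta and BMP genes 3 of 24 rose and 2 of 24 fell, shares near those of all genes. Inhba, the activin A subunit, rose by 1.31 (SE 0.40, adjusted p = 0.045, skin 1 alone 0.46), and follistatin (Fst), which binds activin, by 1.002 (SE 0.27, adjusted p = 0.026, skin 1 alone 0.18). Bmp7 rose by 0.61 (SE 0.19, adjusted p = 0.045, skin 1 alone 0.40), while Bmp4, made by dermal cells, fell by 1.14 (SE 0.22, adjusted p = 0.0073, skin 1 alone 0.11). The inhibitory Smad6 fell by 1.15 (SE 0.30, adjusted p = 0.025, skin 1 alone 0.17). Axin2 was not called without any of keratoacanthomas 3 and 5 or normal skin 1 (adjusted p = 0.051 to 0.063) and Notch1 without any of keratoacanthomas 1, 2, 3 and 5 or any of normal skins 1, 5 and 6 (adjusted p = 0.051 to 0.14). Inhba was not called without any of keratoacanthomas 1, 2, 3 and 5 or any of normal skins 5 and 6 (adjusted p = 0.059 to 0.085) and Fst without any of keratoacanthomas 2 and 3 or normal skin 1 (adjusted p = 0.051 to 0.059). Bmp7 was not called without any of keratoacanthomas 1, 3, 4 and 5 or any of normal skins 5 and 6 (adjusted p = 0.053 to 0.087) and Smad6 without normal skin 1 (adjusted p = 0.063).

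Among transcription factors of the epidermal lineage 8 of 24 rose and 3 of 24 fell. Ehf, an ETS factor of differentiated epithelium, was at 8.71, 9.20, 8.90, 8.67 and 8.74 in the tumours and 7.46 and 6.46 in the skins, a difference of 1.89 (SE 0.24, adjusted p = 0.00084, skin 1 alone 0.0079). Tfap2a rose by 1.38 (SE 0.29, adjusted p = 0.0098, skin 1 alone 0.087) and its relative Tfap2b fell by 1.14 (SE 0.32, adjusted p = 0.034, skin 1 alone 0.12). Klf5, of dividing epithelium, rose by 1.27 (SE 0.30, adjusted p = 0.016, skin 1 alone 0.022), and Elf5 by 1.34 (SE 0.35, adjusted p = 0.024, skin 1 alone 0.29). Sox6, a factor of several mesenchymal and muscle lineages, was at 5.48, 5.71, 5.73, 5.85 and 5.63 in the tumours and 6.94 and 7.64 in the skins and fell by 1.61 (SE 0.23, adjusted p = 0.0016, skin 1 alone 0.028). Zmiz1 was at 8.03, 8.24, 8.03, 8.27 and 8.17 in the tumours and 7.63 and 7.15 in the skins, a difference of 0.76 (SE 0.20, adjusted p = 0.027, skin 1 alone 0.28). A run of 14 of its 27 probesets averaged 9.74, 9.86, 9.59, 9.35 and 10.2 in the tumours and 7.14 and 6.85 in the skins. That run was picked for being high in the tumours, so a test of it carries no weight. An exact permutation test of 5 arrays against 2 gave 0.095, the smallest p it can give, and decides nothing. The other 13 probesets averaged 7.23, 7.08, 7.10, 7.25 and 6.95 in the tumours and 7.29 and 7.34 in the skins. The probesets of Zmiz1 thus did not rise together. Those of Klf5 were also split, with 4 of 7 higher and 3 lower. Those of Senp3, named below, were 5 higher and 3 lower. Other called genes also had probesets both ways, such as Atp5d with 3 higher and 2 lower. In the PIAS and SUMO list 6 of 15 rose and none fell, led by Sae1 of the SUMO activating enzyme (1.44, adjusted p = 0.0034, skin 1 alone 0.048) and the modifier Sumo3 (1.06, adjusted p = 0.0017, skin 1 alone 0.027). The SUMO protease Senp2 rose by 0.997 (SE 0.20, adjusted p = 0.0077, skin 1 alone 0.11) and Senp3 by 0.80 (SE 0.14, adjusted p = 0.0036, skin 1 alone 0.024). Tfap2b was not called without any of keratoacanthomas 2, 3 and 5 or normal skin 1 (adjusted p = 0.059 to 0.14) and Klf5 without normal skin 1 (adjusted p = 0.11). Zmiz1 was not called without any of keratoacanthomas 2 and 5 (adjusted p = 0.051 to 0.056).

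Cytokines of the epithelium rose in 13 of 27 cases and none fell; 6 were called against normal skin 1 alone and the median difference was 0.92. Tslp, which acts on dendritic and T cells, was at 8.94, 9.87, 8.83, 9.19 and 9.79 in the tumours and 5.73 and 6.12 in the skins, a difference of 3.40 (SE 0.29, adjusted p = 0.00010, skin 1 alone 0.0015). Il19, of the interleukin 20 group, was at 8.28, 7.78, 8.23, 7.40 and 9.03 in the tumours and 5.28 and 5.55 in the skins, a difference of 2.73 (SE 0.35, adjusted p = 0.00089, skin 1 alone 0.012). Il1f8 and Il1f9, interleukin 36 cytokines of keratinocytes, differed by 2.62 (SE 0.29, adjusted p = 0.00048, skin 1 alone 0.011) and 2.71 (SE 0.58, adjusted p = 0.011, skin 1 alone 0.11). Il1f9 was at 8.58, 10.64, 8.62, 8.82 and 10.77 in the tumours and 6.92 and 6.63 in the skins. Among chemokines 6 of 26 rose and 1 of 26 fell. Ccl20, which draws cells with CCR6, was at 8.46, 8.63, 7.80, 8.73 and 8.34 in the tumours and 5.27 and 5.53 in the skins, a difference of 2.99 (SE 0.24, adjusted p = 9.1e-05, skin 1 alone 0.0013). Cxcl3, a neutrophil attractant, rose by 2.13 (SE 0.40, adjusted p = 0.0064, skin 1 alone 0.062), and Cxcl2, of the same group, by 2.15 (SE 0.67, adjusted p = 0.049, skin 1 alone 0.24). Cxcl10, an interferon target, rose by 0.95 (SE 0.26, adjusted p = 0.032, skin 1 alone 0.33). Ccl27a, a chemokine of resting keratinocytes, fell by 0.72 (SE 0.16, adjusted p = 0.013, skin 1 alone 0.074). Cxcl2 was not called without any of keratoacanthomas 1, 2 and 5 or any of normal skins 1, 3, 4, 5 and 6 (adjusted p = 0.050 to 0.12) and Cxcl10 without any of keratoacanthomas 2, 4 and 5 (adjusted p = 0.054 to 0.057).

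Enzymes of prostaglandin and leukotriene synthesis included a large rise. Ptgs2, cyclooxygenase 2, was at 9.30, 9.58, 9.60, 9.51 and 9.05 in the tumours and 6.57 and 5.797 in the skins, a difference of 3.22 (SE 0.27, adjusted p = 0.00010, skin 1 alone 0.0023), or 9.33-fold. In its list 5 of 21 rose and 2 of 21 fell. Ptges, which makes prostaglandin E2, rose by 1.48 (SE 0.23, adjusted p = 0.0025, skin 1 alone 0.030), Lta4h, which makes leukotriene B4, by 0.92 (SE 0.15, adjusted p = 0.0027, skin 1 alone 0.044), and Hpgds by 1.01 (SE 0.19, adjusted p = 0.0065, skin 1 alone 0.039). Ptgds, the other prostaglandin D synthase, fell by 0.64 (SE 0.19, adjusted p = 0.038, skin 1 alone 0.081), and the receptor Ptger4 fell by 0.43 (SE 0.13, adjusted p = 0.038, skin 1 alone 0.13). Ptgds was not called without any of keratoacanthomas 1, 2, 3 and 5 or normal skin 1 (adjusted p = 0.064 to 0.19) and Ptger4 without any of keratoacanthomas 2, 4 and 5 or any of normal skins 1, 5 and 6 (adjusted p = 0.054 to 0.12).

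Of the interferon-stimulated genes 11 of 25 rose and none fell, beside 10.6% of all genes that rose, 7 of them against normal skin 1 alone, at a median difference of 0.55. Isg15, a ubiquitin-like modifier, was at 9.03, 9.37, 9.23, 8.98 and 8.75 in the tumours and 6.65 and 6.86 in the skins, a difference of 2.31 (SE 0.19, adjusted p = 9.8e-05, skin 1 alone 0.0015). Ifit1, which binds foreign RNA, was at 6.80, 7.85, 7.53, 7.37 and 7.18 in the tumours and 5.90 and 5.46 in the skins, a difference of 1.66 (SE 0.24, adjusted p = 0.0017, skin 1 alone 0.034). Ifi44 rose by 1.72 (SE 0.20, adjusted p = 0.00065, skin 1 alone 0.010), and Ifih1, the RNA sensor MDA5, by 1.56 (SE 0.19, adjusted p = 0.00065, skin 1 alone 0.013). The Isg15 promoter is shown because interferon-activated factors recognise the ISRE, searched as GAAA, any 2 bases and GAAA on both strands. It was found in 9 of 19 promoters of the list (47.4%) and in 3.04% of all 27025. Isg15 (GRCm38.p6, chr4:156200819-156201068, minus strand) held 3 overlapping matches, in capitals.

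Isg15: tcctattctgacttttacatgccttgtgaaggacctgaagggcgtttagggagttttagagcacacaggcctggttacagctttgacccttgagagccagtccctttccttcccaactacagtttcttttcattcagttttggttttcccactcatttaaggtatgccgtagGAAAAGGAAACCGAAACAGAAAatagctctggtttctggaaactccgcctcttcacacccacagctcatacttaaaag

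Markers of immune cells moved in few cases outside the neutrophil list. There 6 of 18 rose and none fell, and the mean was 6.39, 6.90, 6.01, 5.90 and 6.55 in the tumours and 5.22 and 5.03 in the skins. S100a8, an alarmin of neutrophils that stressed keratinocytes also make and that stands in both lists, was at 11.10, 11.74, 10.80, 10.76 and 11.70 in the tumours and 7.06 and 7.64 in the skins, a difference of 3.87 (SE 0.62, adjusted p = 0.0027, skin 1 alone 0.027). Its partner S100a9 rose by 3.23 (SE 0.47, adjusted p = 0.0017, skin 1 alone 0.010). Cxcr2, the receptor of neutrophil chemokines, was at 7.86, 8.67, 7.77, 7.59 and 8.58 in the tumours and 5.63 and 4.07 in the skins, a difference of 3.24 (SE 0.40, adjusted p = 0.00076, skin 1 alone 0.011). The neutrophil markers Ly6g, Ltf, Ngp, Mmp8, Fpr1 and Fpr2 were dim in the tumours. Whether keratinocytes or neutrophils carried the rise was not tested. Of 22 macrophage genes one fell, Trem2, which fell by 0.48 (SE 0.15, adjusted p = 0.047, skin 1 alone 0.41). Of 18 dendritic and Langerhans cell genes one fell, Mgl2, which fell by 1.53 (SE 0.43, adjusted p = 0.034). It was at 3.39, 4.10, 5.07, 4.52 and 3.80 in the tumours and 5.02 and 6.39 in the skins. Keratoacanthoma 3 lay above normal skin 1, so the groups overlapped. The Mgl2 difference was -0.84 against normal skin 1 and -2.21 against normal skin 2. Trem2 was not called without any of keratoacanthomas 1, 2, 3 and 5 or any of normal skins 3, 4, 5 and 6 (adjusted p = 0.056 to 0.090) and Mgl2 without any of keratoacanthomas 1, 2 and 5 (adjusted p = 0.052 to 0.068).

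Among 21 T cell genes, Icos, a co-stimulator, was at 6.42, 6.76, 6.57, 6.52 and 6.92 in the tumours and 5.37 and 5.67 in the skins, a difference of 1.12 (SE 0.19, adjusted p = 0.0038, skin 1 alone 0.024), and Prf1, perforin of cytotoxic cells, fell by 0.67 (SE 0.16, adjusted p = 0.018, skin 1 alone 0.22). No gene of 11 B cell markers was called; Ms4a1, CD20, was at 3.72, 3.94, 3.81, 4.11 and 4.35 in the tumours and 3.95 and 4.98 in the skins, a difference of -0.48 (SE 0.28, adjusted p = 0.27, skin 1 alone 0.97). Against normal skin 1 alone that difference was 0.04. Of the 11 markers, 4 were dim in the tumours and 4 in the skins, Ms4a1 in both. Of 11 mast cell and basophil genes 2 rose, Mcpt8, a protease of basophils, by 1.05 (SE 0.28, adjusted p = 0.028, skin 1 alone 0.081) and the histamine enzyme Hdc by 0.89 (SE 0.26, adjusted p = 0.037, skin 1 alone 0.12). Mcpt8 was not called without keratoacanthoma 5 or normal skin 1 (adjusted p = 0.052 to 0.15) and Hdc without any of keratoacanthomas 1, 2, 4 and 5 or any of normal skins 1, 5 and 6 (adjusted p = 0.050 to 0.15).

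Matrix remodelling genes rose in 8 of 25 cases and fell in 1 of 25. Mmp13, an interstitial collagenase, was at 8.42, 9.20, 8.47, 7.85 and 9.16 in the tumours and 5.75 and 5.33 in the skins, a difference of 3.08 (SE 0.36, adjusted p = 0.00064, skin 1 alone 0.014). Mmp9, a gelatinase of keratinocytes and neutrophils, was at 6.98, 7.95, 7.22, 7.06 and 7.59 in the tumours and 5.43 and 4.85 in the skins, a difference of 2.22 (SE 0.25, adjusted p = 0.00051, skin 1 alone 0.011). Tnc, tenascin C of wound matrix, was at 8.55, 8.85, 9.13, 8.85 and 9.05 in the tumours and 7.28 and 5.801 in the skins, a difference of 2.35 (SE 0.40, adjusted p = 0.0039, skin 1 alone 0.064). Mmp12, macrophage elastase, rose by 2.30 (SE 0.63, adjusted p = 0.029, skin 1 alone 0.27), and the inhibitor Timp3 fell by 0.81 (SE 0.20, adjusted p = 0.021, skin 1 alone 0.23). Of the collagens 1 of 20 rose and 3 of 20 fell, beside 10.6% and 6.93% of all genes. Col1a1, of the main fibre of dermis, was at 8.47, 8.35, 8.73, 8.37 and 8.42 in the tumours and 9.54 and 10.64 in the skins and fell by 1.62 (SE 0.26, adjusted p = 0.0026, skin 1 alone 0.027); Col1a2 fell by 1.49 (SE 0.27, adjusted p = 0.0048, skin 1 alone 0.067) and Col3a1 fell by 1.46 (SE 0.28, adjusted p = 0.0062, skin 1 alone 0.087). Col12a1, which decorates collagen fibres under strain, was at 9.20, 9.51, 10.05, 9.65 and 9.996 in the tumours and 7.59 and 6.63 in the skins, a difference of 2.57 (SE 0.28, adjusted p = 0.00046, skin 1 alone 0.0074). Mmp12 was not called without any of keratoacanthomas 2 and 3 (adjusted p = 0.053 to 0.057).

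Fibroblast markers gave 2 of 24 rises and 6 of 24 falls, where 10.6% of all genes rose and 6.93% fell. Gsn, gelsolin, was at 7.71, 7.77, 7.97, 8.20 and 7.82 in the tumours and 8.85 and 9.64 in the skins and fell by 1.35 (SE 0.22, adjusted p = 0.0029, skin 1 alone 0.045). Clec3b, tetranectin, fell by 1.09 (SE 0.20, adjusted p = 0.0057, skin 1 alone 0.087). Fap, a protease of activated fibroblasts, was at 4.46, 4.56, 5.69, 5.35 and 4.87 in the tumours and 6.70 and 6.21 in the skins and fell by 1.47 (SE 0.30, adjusted p = 0.0089, skin 1 alone 0.043). Ogn, a small leucine-rich proteoglycan, fell by 1.39 (SE 0.39, adjusted p = 0.032, skin 1 alone 0.36). Has2, which makes hyaluronan, rose by 1.69 (SE 0.35, adjusted p = 0.0087, skin 1 alone 0.071), and Ly6a by 0.56 (SE 0.17, adjusted p = 0.039, skin 1 alone 0.14). Of 12 smooth muscle genes none rose and 2 fell, Synpo2 with -1.81 (adjusted p = 0.0028, skin 1 alone 0.028) and Lmod1 with -0.74 (adjusted p = 0.015, skin 1 alone 0.19). Fap was not called without normal skin 1 (adjusted p = 0.050) and Ogn without any of keratoacanthomas 1, 2 and 5 (adjusted p = 0.055 to 0.062). Ly6a was not called without any of keratoacanthomas 2, 3 and 5 or any of normal skins 1, 5 and 6 (adjusted p = 0.054 to 0.13).

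Of 19 endothelial genes, Angpt2, made by sprouting vessels, rose by 0.85 (SE 0.22, adjusted p = 0.023, skin 1 alone 0.18) and the VEGF receptor Kdr by 0.48 (SE 0.14, adjusted p = 0.033, skin 1 alone 0.14), while Plvap fell by 0.51 (SE 0.14, adjusted p = 0.033, skin 1 alone 0.12). Of 9 Schwann cell genes, Pmp22 fell by 0.89 (SE 0.24, adjusted p = 0.025, skin 1 alone 0.14) and S100b fell by 0.73 (SE 0.19, adjusted p = 0.026, skin 1 alone 0.12). Of 13 pigment cell genes, Mitf, their lineage factor, was at 5.61, 5.87, 5.60, 6.13 and 5.73 in the tumours and 7.28 and 6.68 in the skins and fell by 1.19 (SE 0.20, adjusted p = 0.0034, skin 1 alone 0.0084). Mc1r, the melanocortin receptor, was at 6.74, 6.78, 6.87, 5.99 and 6.64 in the tumours and 5.65 and 5.98 in the skins, a difference of 0.79 (SE 0.24, adjusted p = 0.044, skin 1 alone 0.13), with keratoacanthoma 4 the lowest tumour. Of the 3 probesets of Mc1r 1 was higher and 2 were lower, and of the 29 of Kdr 14 were higher and 15 lower; the 6 of Plvap were split evenly. Fat cell genes gave no rise and 8 of 20 falls, 5 of them against normal skin 1 alone, with a median difference of -0.69. Their mean was 6.15, 6.21, 6.44, 6.63 and 6.07 in the tumours and 7.04 and 7.29 in the skins. Lpl, lipoprotein lipase, was at 5.72, 6.01, 6.24, 7.07 and 5.93 in the tumours and 8.26 and 8.69 in the skins and fell by 2.28 (SE 0.30, adjusted p = 0.0012, skin 1 alone 0.024); Cd36, a fatty acid transporter, fell by 2.46 (SE 0.34, adjusted p = 0.0015, skin 1 alone 0.026). Adipoq, the fat cell hormone adiponectin, was at 4.20, 4.73, 6.32, 7.20 and 3.41 in the tumours and 8.07 and 8.72 in the skins and fell by 3.22 (SE 0.81, adjusted p = 0.021, skin 1 alone 0.18). Cfd, adipsin, fell by 2.003 (SE 0.50, adjusted p = 0.021, skin 1 alone 0.18). Kdr was not called without any of keratoacanthomas 2, 3 and 5 or normal skin 1 (adjusted p = 0.051 to 0.097) and Plvap without any of keratoacanthomas 2 and 3 or normal skin 1 (adjusted p = 0.063 to 0.11). Pmp22 was not called without any of keratoacanthomas 2 and 5 or normal skin 1 (adjusted p = 0.051 to 0.080) and S100b without any of keratoacanthomas 2 and 5 or normal skin 1 (adjusted p = 0.051 to 0.094). Mc1r was not called without any of keratoacanthomas 1, 2, 3 and 5 or any of normal skins 1, 3 and 4 (adjusted p = 0.051 to 0.18).

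**Figure D4:**
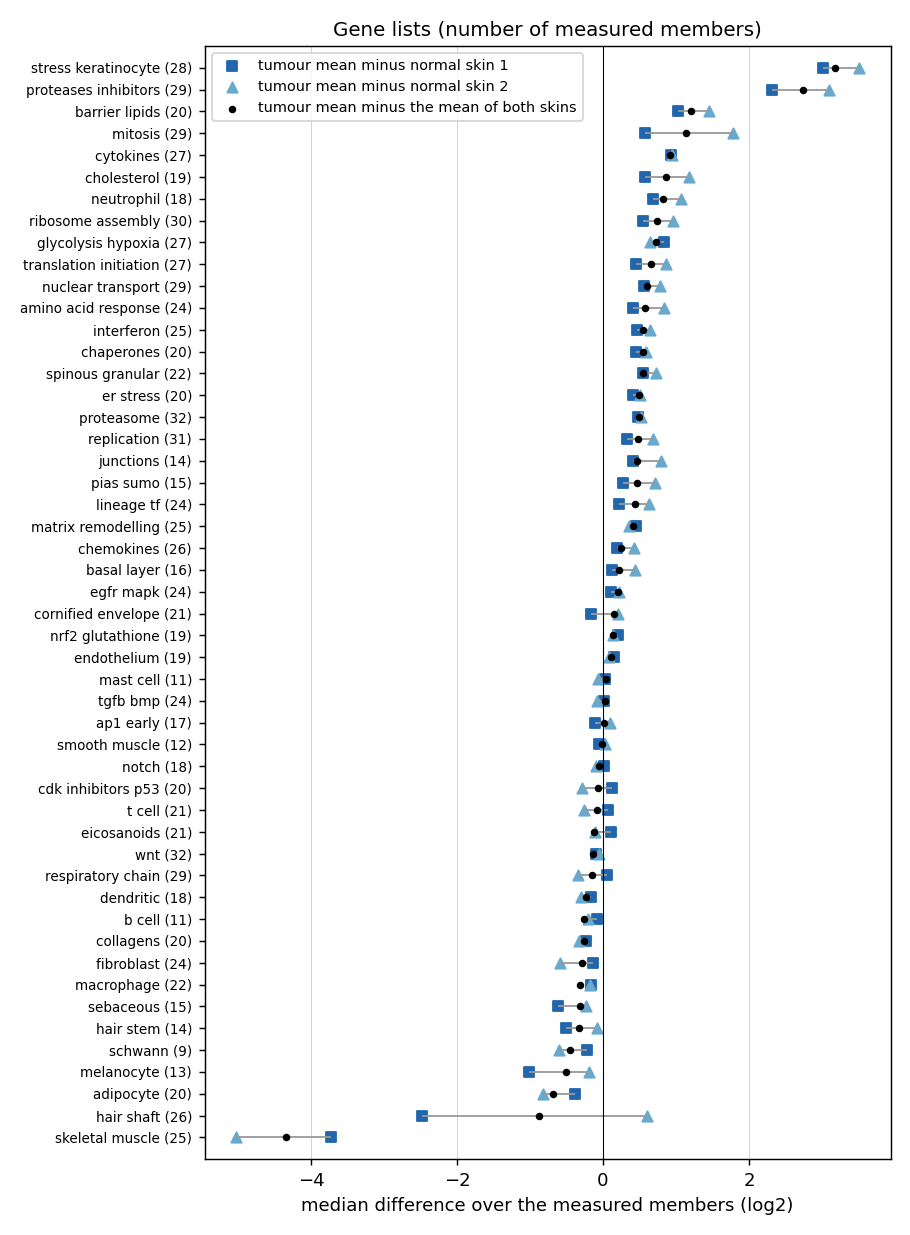
Median log2 difference over the measured members of each of the 50 gene lists, with the number of members in brackets; black points compare the tumour mean with the mean of both skins, squares with normal skin 1 and triangles with normal skin 2. The medians run from -4.35 for skeletal muscle to 3.18 for stress keratinocyte genes, and the hair shaft list lies at -2.48 against normal skin 1 and 0.60 against normal skin 2.

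Enzymes of glycolysis and hypoxia targets rose in 13 of 27 cases and none fell, and 9 members were higher against normal skin 1 alone, while 2 were lower against normal skin 2 alone. Slc2a1, the glucose transporter GLUT1, was at 9.31, 9.09, 8.89, 8.998 and 8.62 in the tumours and 7.46 and 7.59 in the skins, a difference of 1.46 (SE 0.19, adjusted p = 0.0012, skin 1 alone 0.014). Egln3, a prolyl hydroxylase induced by hypoxia, was at 9.86, 10.03, 9.52, 9.32 and 9.77 in the tumours and 7.75 and 8.24 in the skins, a difference of 1.71 (SE 0.23, adjusted p = 0.0011, skin 1 alone 0.0068). Eno1, enolase, rose by 1.64 (SE 0.26, adjusted p = 0.0028, skin 1 alone 0.037), and Car12, a carbonic anhydrase, by 1.67 (SE 0.34, adjusted p = 0.0082, skin 1 alone 0.11). In the respiratory chain 1 of 29 rose and 6 of 29 fell, and none was called against normal skin 1 alone. Mean levels were 9.34, 9.40, 9.43, 9.40 and 9.47 in the tumours and 9.32 and 9.88 in the skins, so that normal skin 2 alone lay above the tumours. Normal skin 2 was also highest in skeletal muscle genes, a tissue rich in mitochondria; the part of muscle in these falls was not tested. The falls named by the rule were Ndufb8 (-0.996, adjusted p = 0.023, skin 1 alone 0.25), Ndufa2 (-0.97, adjusted p = 0.014, skin 1 alone 0.17), Sdhb (-0.93, adjusted p = 0.025, skin 1 alone 0.30) and Ndufb5 (-0.72, adjusted p = 0.018, skin 1 alone 0.22), and the rise Atp5d (0.42, adjusted p = 0.048, skin 1 alone 0.12). Atp5d was not called without any of keratoacanthomas 2, 3, 4 and 5 or any of normal skins 1, 3, 4, 5 and 6 (adjusted p = 0.052 to 0.17).

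Cholesterol synthesis genes rose in 13 of 19 cases and none fell, 5 of them against normal skin 1 alone, at a median difference of 0.87. Sqle, squalene epoxidase, was at 9.52, 9.80, 9.61, 9.77 and 9.91 in the tumours and 8.39 and 6.98 in the skins, a difference of 2.04 (SE 0.30, adjusted p = 0.0018, skin 1 alone 0.012). Others were Idi1 (1.55, adjusted p = 0.0030, skin 1 alone 0.030), Cyp51 (1.502, adjusted p = 0.0015, skin 1 alone 0.017) and Nsdhl (1.36, adjusted p = 0.015, skin 1 alone 0.18). Of NRF2 targets and glutathione genes 6 of 19 rose and 1 of 19 fell. Gsta4, a transferase that detoxifies lipid aldehydes, was at 9.92, 10.29, 10.45, 9.71 and 10.38 in the tumours and 6.97 and 7.56 in the skins, a difference of 2.88 (SE 0.24, adjusted p = 9.1e-05, skin 1 alone 0.00072). Slc7a11, the cystine importer, was at 6.92, 8.02, 7.24, 7.47 and 7.43 in the tumours and 5.45 and 3.85 in the skins, a difference of 2.76 (SE 0.41, adjusted p = 0.0019, skin 1 alone 0.029). Gpx2, a glutathione peroxidase of epithelia, rose by 2.32 (SE 0.26, adjusted p = 0.00051, skin 1 alone 0.011) and Akr1b8 by 1.98 (SE 0.32, adjusted p = 0.0027, skin 1 alone 0.052), while Gsta3 fell by 1.56 (SE 0.34, adjusted p = 0.011, skin 1 alone 0.16). In the amino acid response list 12 of 24 rose and 1 of 24 fell. Shmt2, of mitochondrial one-carbon metabolism, was at 7.61, 7.61, 7.63, 7.66 and 7.96 in the tumours and 5.98 and 6.22 in the skins, a difference of 1.59 (SE 0.16, adjusted p = 0.00026, skin 1 alone 0.0030). Others were Slc7a5 (1.39, adjusted p = 0.0019, skin 1 alone 0.037), Asns (1.24, adjusted p = 0.0039, skin 1 alone 0.067) and Psat1 (1.20, adjusted p = 0.0070, skin 1 alone 0.062), and Chac1 fell by 1.05 (SE 0.16, adjusted p = 0.0019, skin 1 alone 0.0065).

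Genes that make, fold, move and degrade proteins rose in many cases, with smaller median differences than the keratinocyte stress genes. For ribosome assembly, 22 of 30 rose and 1 of 30 fell. The median difference was 0.75 (0.55 against normal skin 1 and 0.96 against normal skin 2). Nhp2, of the small nucleolar particles that modify ribosomal RNA, was at 9.62, 9.497, 9.57, 9.55 and 9.76 in the tumours and 8.14 and 6.78 in the skins, a difference of 2.14 (SE 0.29, adjusted p = 0.0012, skin 1 alone 0.0059). Nucleostemin (Gnl3) rose by 1.56 (SE 0.24, adjusted p = 0.0022, skin 1 alone 0.039), Wdr43 (1.53, adjusted p = 0.0013, skin 1 alone 0.0055) and Nop16 (1.44, adjusted p = 0.016, skin 1 alone 0.22) likewise, and Rrp9 fell by 0.54 (SE 0.16, adjusted p = 0.036, skin 1 alone 0.36). For translation factors 18 of 27 rose and none fell, with 1 called against normal skin 1 alone. Eif6, a factor for large ribosomal subunits, was at 7.56, 8.24, 7.76, 7.95 and 8.15 in the tumours and 6.65 and 5.98 in the skins, a difference of 1.62 (SE 0.22, adjusted p = 0.0012, skin 1 alone 0.022); next were Eif2s1 (1.34, adjusted p = 0.019, skin 1 alone 0.17), Eif3d (1.07, adjusted p = 0.0096, skin 1 alone 0.13) and Eef1e1 (1.04, adjusted p = 0.0085, skin 1 alone 0.12). In nuclear transport 18 of 29 rose, none fell and 5 were called against normal skin 1 alone. Nup205, of the inner ring of the pore, was at 7.41, 7.29, 7.19, 7.36 and 7.39 in the tumours and 6.25 and 6.12 in the skins, a difference of 1.14 (SE 0.12, adjusted p = 0.00030, skin 1 alone 0.0053). Others were Kpna2 (1.54, adjusted p = 0.0076, skin 1 alone 0.11), Ran (1.26, adjusted p = 0.0062, skin 1 alone 0.080) and Nup107 (1.12, adjusted p = 0.0033, skin 1 alone 0.050). Rrp9 was not called without any of keratoacanthomas 3, 4 and 5 or any of normal skins 5 and 6 (adjusted p = 0.052 to 0.070).

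Proteasome subunits rose in 18 of 32 cases and none fell, 3 of them against normal skin 1 alone, at a median difference of 0.49. Psmb4, of the core particle, was at 10.60, 10.86, 10.73, 10.95 and 11.01 in the tumours and 9.90 and 9.95 in the skins, a difference of 0.91 (SE 0.14, adjusted p = 0.0021, skin 1 alone 0.023). Psma2 was at 9.08, 9.495, 9.58, 9.53 and 9.65 in the tumours and 8.74 and 8.47 in the skins, with keratoacanthoma 1 the lowest tumour, a difference of 0.86 (SE 0.16, adjusted p = 0.0064, skin 1 alone 0.085). Others were Psmb3 (0.84, adjusted p = 0.028, skin 1 alone 0.18) and Psmd14 (0.82, adjusted p = 0.017, skin 1 alone 0.22). Cytosolic chaperones rose in 12 of 20 cases and none fell. Cct6a, a subunit of the chaperonin that folds actin and tubulin, was at 9.53, 9.37, 9.32, 9.05 and 9.33 in the tumours and 8.19 and 7.77 in the skins, a difference of 1.34 (SE 0.16, adjusted p = 0.00064, skin 1 alone 0.011). Others were Dnajb1 (1.29, adjusted p = 0.0017, skin 1 alone 0.021), Stip1 (1.08, adjusted p = 0.0040, skin 1 alone 0.048) and Cct2 (1.04, adjusted p = 0.0024, skin 1 alone 0.038). In the endoplasmic reticulum list 8 of 20 rose and none fell, led by Edem1 (1.39, adjusted p = 0.015, skin 1 alone 0.19), Canx (1.21, adjusted p = 0.0037, skin 1 alone 0.034), Pdia4 (1.01, adjusted p = 0.0022, skin 1 alone 0.038) and Hspa5 (1.01, adjusted p = 0.011, skin 1 alone 0.16). Edem1 serves the disposal of misfolded glycoproteins, and Canx, Pdia4 and Hspa5 fold secreted proteins. Psmb3 was not called without any of keratoacanthomas 2 and 5 or normal skin 1 (adjusted p = 0.055 to 0.062).

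Some called genes differed widely between the reference skins. Among called genes the widest difference between the skins was that of Retnla, a secreted protein of fat and alternatively activated macrophages. It was at 4.69, 4.08, 7.16, 4.86 and 3.61 in the tumours and 6.29 and 9.61 in the skins, and fell by 3.07 (SE 0.93, adjusted p = 0.045, skin 1 alone 0.48); keratoacanthoma 3 lay above the other tumours and normal skin 1. Sprr1a, a small proline-rich protein of wounds, was at 9.53, 10.04, 9.75, 9.64 and 10.02 in the tumours and 9.05 and 6.34 in the skins, a difference of 2.10 (SE 0.53, adjusted p = 0.021, skin 1 alone 0.18). Myl1, a fast muscle light chain, was at 4.39, 4.90, 4.62, 5.27 and 4.78 in the tumours and 7.11 and 9.82 in the skins and fell by 3.67 (SE 0.54, adjusted p = 0.0018, skin 1 alone 0.0050). C7, a complement component made by fibroblasts, was at 4.41, 4.71, 4.41, 3.78 and 4.02 in the tumours and 6.08 and 8.66 in the skins and fell by 3.10 (SE 0.58, adjusted p = 0.0060, skin 1 alone 0.071). Conversely, large differences without overlap missed the threshold. Gjb2, connexin 26 of hyperproliferative epidermis, was at 10.05, 9.90, 9.87, 10.002 and 10.04 in the tumours and 9.46 and 6.77 in the skins, a difference of 1.86 (SE 0.68, adjusted p = 0.082, skin 1 alone 0.73). Tubb3, a tubulin known from neurons, was at 9.60, 9.29, 9.58, 10.12 and 9.90 in the tumours and 8.96 and 6.16 in the skins, a difference of 2.14 (SE 0.77, adjusted p = 0.078, skin 1 alone 0.67). The plasma protein Hp, haptoglobin, was at 6.56, 7.004, 7.30, 8.56 and 5.84 in the tumours and 8.95 and 8.59 in the skins, a difference of -1.72 (SE 0.55, adjusted p = 0.054, skin 1 alone 0.19). Retnla was not called without any of keratoacanthomas 1, 2, 4 and 5 or any of normal skins 3, 4, 5 and 6 (adjusted p = 0.057 to 0.084).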

How the data were processed

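The authors deposited log2 values of 241576 whole-transcript probesets in 11 arrays; the submitters' processing notes name RMA (background correction, quantile normalization and probe summary), Partek and genome build mm9, with versions not given in the sources used here. The values were used as deposited without further normalization; the lowest was 0.994, the highest 15.2, and the arrays had medians between 6.22 and 6.27. The number of arrays limited the precision. By the array's annotation 212097 probesets named 1 gene; 590 identical copies were dropped, and the 211507 others gave 20352 genes by their median (8 probesets per gene at the median, 2275 genes with 1). Symbols were updated through RefSeq for 2742 genes.

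limma 3.58.1 in R 4.3.3 fitted 4 groups over 11 arrays (keratoacanthoma and the 3 genotypes of normal skin), and keratoacanthoma minus double transgenic normal skin was tested with eBayes, with Benjamini-Hochberg adjusted p below 0.05 taken as called. The script was tested on simulated data. Tables, motif counts and plots used Python 3.11.15, pandas 2.3.3, numpy 2.4.6, scipy 1.17.1 and matplotlib 3.10.9. The arrays, tests, rule for named genes and 50 gene lists (1116 genes, 1071 measured, 11 in more than 1 list) were chosen with earlier results of these data known; lists are described by counts and medians and were not tested.

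Named genes were the 12 largest rises and falls that did not overlap, the 6 widest gaps each way, the 5 smallest p, per list up to 4 called members in the direction of more calls and 2 in the other (or the largest difference where none was called), the 6 called genes that differed most between the reference skins, the 6 largest differences without overlap that were not called, and Zmiz1. Members named by this rule and not printed are included in the counts. Alternatives were a fit on 7 arrays, gene levels as means, removal of dim probesets or of dim genes, further quantile normalization, centring, eBayes with trend and robust settings, the title number as a block, and each array left out. Leaving out normal skin 3 gave the same result as leaving out normal skin 4, and likewise for normal skins 5 and 6. Each such pair is 1 check. Promoters were RefSeq sequences of GRCm38.p6, the first listed start of each gene; array coordinates were not used.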

Additional observations from a re-analysis of the deposited data

Results flagged for a closer look

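Among the 5 keratoacanthomas, a tumour was marked where its gap to the nearest other exceeded 0.71 of the range (Dixon's critical value); 14 of 276 results met this, and chance gives about 1 in 20. Keratoacanthoma 4 stood out in the hair shaft list, with a mean of 8.10 against 6.00 to 6.21 in the others, and in its member Krt26, at 8.24 against 3.88 to 4.88. It was also highest in Mcpt8, at 6.30 against 5.59 to 5.79, and lowest in Mc1r, at 5.99 against 6.64 to 6.87, and in Ivl, at 10.6 against 10.8 to 10.9. Keratoacanthoma 1 was lowest in Tmprss11b, at 8.72 against 9.35 to 9.57, in Flg, at 11.3 against 11.6 to 11.8, and in Psma2, at 9.08 against 9.495 to 9.65. Its mean of the immediate early and AP-1 genes was 7.38 against 7.01 to 7.10. Keratoacanthoma 3 was lowest in Itga2, at 7.04 against 7.55 to 7.62. Keratoacanthoma 5 was highest in Shmt2, at 7.96 against 7.61 to 7.66, in Asns, at 8.57 against 7.95 to 8.09, and in Nop16, at 9.11 against 8.55 to 8.66. Its mean of the T cell genes was 5.70 against 5.53 to 5.56.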

How the results depend on the processing

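The counts of 2164 genes higher and 1411 lower rested on normal skin 2. With 1 array left out they ranged from 503 to 2542 higher and from 323 to 2111 lower: the low counts came without normal skin 2 and the high ones without normal skin 1, while leaving out any keratoacanthoma gave 1664 to 2023 and 983 to 1305. The fit with 7 arrays gave 1942 and 1244, no dim probesets 2231 and 1622, no dim genes 2236 and 1269, quantile normalization 1575 and 1271, centring 2525 and 1085, and trend and robust settings 2171 and 1423. The mean over probesets gave 2844 higher and 2301 lower. With the title number as a replicate block 177 genes were higher and 194 lower. Between the tumours and the reference skins that block shares only numbers 1 and 2. The remaining tumours share their numbers with the other normal skins. The added block terms also leave less information for estimating the spread. Deviations from the group means correlated at -0.15 for number 1 and -0.0002 for number 2. With 2 skins the deviations of the skins mirror each other. Keratoacanthoma 4, which has no same-numbered skin of the genotype, gave 0.20 with normal skin 1. These correlations cannot show whether the numbers are pairs, and the main fit used no pairs. The cause of these shifts was not tested.

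Of the 226 genes followed, 216 were called; 111 calls were lost without normal skin 2, 26 without normal skin 1 and 135 with the block, against 0 to 32 under each other setting. Krt26 had a difference of -5.50 without normal skin 2 and 0.66 without normal skin 1. Ms4a1 had 0.25 without dim probesets, 0.039 without normal skin 2 and -0.996 without normal skin 1. Krt10 had -0.012 with the mean over probesets. None of these 3 genes was called in the main fit. Signal over background limited 110 of the rises and 312 of the falls, whose lower group was dim; there a fold change may be too small.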
